A study of Mus musculus with 35 samples.

Results

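The mitogen-activated protein kinase (MAPK) feedback genes followed here were 10 of the 32544 genes in the count tables, namely the phosphatase genes Dusp1, Dusp4, Dusp5, Dusp6, Dusp14, the Sprouty genes Spry2 and Spry4, their relatives Spred1 and Spred2, and the pseudokinase gene Trib1. They were chosen by name, with earlier results of these data known, and all 10 passed the filter on low counts in each comparison. The hippocampus was taken from male C57BL/6JOlaHsd mice, 7 to 9 weeks old, given kainic acid into the amygdala (IAKA) or PBS by the same route. Kainic acid, a glutamate receptor agonist, triggers status epilepticus, which was damped with lorazepam, and spontaneous seizures follow within 2 weeks. Mice were sampled at 24 h, the acute stage, or at 2 weeks, the chronic stage. Sequencing libraries were made from total RNA of these mice (input) and from RNA pulled down with an antibody against N6-methyladenosine (m6A), a methyl mark on adenosines of mRNA. A level in an m6A library therefore moves with the amount of a transcript as well as with its methylation. At 24 h there were 5 IAKA and 3 PBS mice with m6A libraries, and at 2 weeks 6 IAKA and 5 PBS mice.

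MAPK signalling limits itself, because active MAPKs switch on genes whose products then switch the MAPKs off. The dual-specificity phosphatases remove phosphate from both the threonine and the tyrosine of an active MAPK, the Sprouty and Spred proteins hold back the path from receptor tyrosine kinases through Ras and Raf to ERK, and the Tribbles pseudokinases bind kinases and a ubiquitin ligase and pass targets to degradation. In neurons, ERK is activated by glutamate receptors and by seizures, and transcripts of several of these inhibitors are known as ERK-driven or activity-driven genes.

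The 19 m6A libraries held 1652933 to 34564536 counts, with the lowest 2 from IAKA mice 98 and 67 at 24 h. Of 16 input libraries, 3 held fewer than 100000 counts and were left out, all of them from 24 h, so that the input comparison at that time set 3 IAKA mice against 1 PBS mouse. The other 13 input libraries held 3057578 to 12694434 counts. The column names of the m6A libraries begin with 3, 4 or 5, called library sets here. Set 3 held IAKA mice only, set 4 held both groups at 24 h and 2 PBS mice at 2 weeks, and set 5 held both groups at 2 weeks and 1 PBS mouse at 24 h. Markers of excitatory neurons, astrocytes and the other hippocampal cell types were detected in each group of libraries. Because the tissue is bulk hippocampus, a change in the number of cells of a type and a change of RNA per cell cannot be told apart.

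Promoter sequence from RefSeq (build GRCm38.p6, which is mm10) was on hand for 7 of the 10 genes, as 250 bases before and 50 after the transcription start, and not for Dusp4, Spry4 and Trib1. The elements through which calcium and ERK signals reach immediate early genes were searched on both strands: the cyclic AMP response element (CRE, TGACGTCA), the AP-1 site (TGANTCA) and the CArG box bound by serum response factor. Dusp1 held a CRE starting at position -143 and Dusp5 held 2 adjoining CArG boxes starting at positions -82 and -72. None of the 3 elements was found in this window of Dusp6, Dusp14, Spry2, Spred1 or Spred2. Of 32851 mouse promoters, 1.79% held a CRE, 7.81% an AP-1 site and 1.63% a CArG box. The 80 bases around each match are shown because they carry the only matches among these genes, with the motif in capitals. The Dusp1 stretch is chr17:26508573-26508652 on the minus strand and the Dusp5 stretch is chr19:53529035-53529114 on the plus strand.
Dusp1: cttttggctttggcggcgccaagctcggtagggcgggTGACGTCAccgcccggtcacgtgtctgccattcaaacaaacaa
Dusp5: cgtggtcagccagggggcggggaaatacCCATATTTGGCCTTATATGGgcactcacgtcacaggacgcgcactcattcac

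The methyltransferase that writes m6A prefers a short consensus, of which GGACT is the most common form in DNA letters. In the GENCODE vM39 canonical transcripts the 10 genes held 2 to 8 GGACT each, with a median of 1.41 per kb against 1.01 per kb over 21593 coding transcripts. Dusp6 held 8 sites in 2832 bases, 2.83 per kb, a density at percentile 96.9 of all transcripts, and 6 of the 8 lay in its coding sequence. Spry4, with 2 sites, was at percentile 17.5. Trib1 held 6 sites in 4382 bases, at percentile 70.3, of which 1 was coding, 4 lay in the 3′ UTR and 1 in the 5′ UTR. The coding site of Trib1, at transcript bases 1351 to 1355, 2 of its 3′ UTR sites and the first coding site of Dusp6 are shown with GGACT in capitals, since Trib1 is the gene on which the results below turn and Dusp6 the densest. These are matches to a consensus, and no methylated base was measured at any of them here.
Trib1 coding: tcttcgagaaGGACTttggagacat
Trib1 3′ UTR, base 3097: tagctggaaaGGACTttaaaactca
Trib1 3′ UTR, base 3729: gcatttgcctGGACTgctggaaaca
Dusp6 coding, base 597: ttctgctgatGGACTgccgaccaca

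At 24 h, all 10 genes had a higher fitted level in the m6A libraries of IAKA mice than in those of PBS mice, and 1 of them, Trib1, passed the test. Levels are given as CPM, the counts of a gene scaled to a common library total, and tests are edgeR's quasi-likelihood test with P values adjusted (Benjamini-Hochberg) over all genes tested. Of 17440 genes, 31 were called (0.178%), and 30 of these were higher in IAKA mice (0.172%). A fitted change above 0 was also found for 58.5% of all genes. The median log2 fold change of the 10 genes was 0.79, against 0.09 over all genes. An unadjusted P under 0.05 was reached by 6 of the 10, against 6.95% of all genes.

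Trib1, a pseudokinase that binds MEK1 and directs the COP1 ligase to C/EBP transcription factors, had the widest change of the 10. Its m6A level was 20.2, 21.8, 18.3, 47.8 and 66.8 CPM in IAKA mice 67, 98, 8, 97 and 79, and 9.68, 7.73 and 4.65 CPM in PBS mice 71, 73 and 1. The groups did not overlap, and the lowest IAKA library stood well above the highest PBS library. The log2 fold change was 2.22 ± 0.41 (SE), with an adjusted P of 0.0318 by edgeR, the 11th smallest P of 17440 genes. The 2 highest values were both from set 4, in which the PBS mice had 7.73 and 9.68 CPM. With libraries of set 4 alone, in an alternative added after the data were seen, the log2 fold change was 2.60 (edgeR, adjusted P = 0.00561). With library set as a block it was 2.42 (edgeR, adjusted P = 0.00102). Only set 4 held both groups at 24 h, so the block leans on the same libraries. It also assumes that sets differ alike at both times, and is no separate check. The call was lost without PBS mouse 71 (edgeR, adjusted P = 0.172), 73 (0.260) or 1 (0.217) and without IAKA mouse 97 (0.0891) or 79 (0.0936), while the log2 fold change stayed between 1.84 and 2.37. Without the 2 libraries of fewest counts, another alternative added later, it was 2.52 (edgeR, adjusted P = 0.0161). It was also lost with only the 8 libraries of 24 h in the fit (log2 fold change 2.22, edgeR, adjusted P = 0.251).

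**Figure D1:**
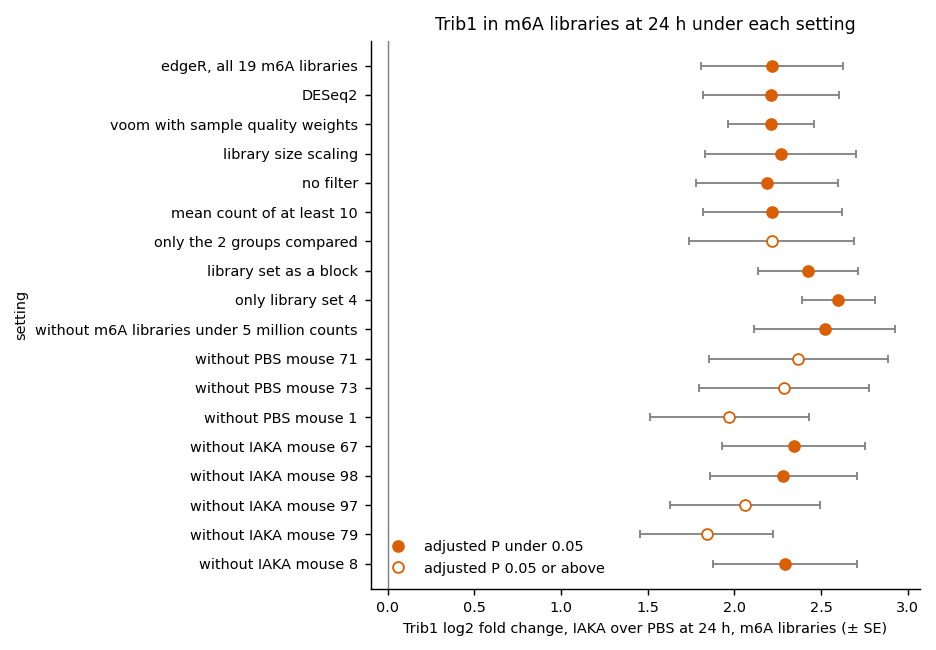
Log2 fold change of Trib1 (horizontal axis, IAKA over PBS at 24 h in m6A libraries, bars ± SE) under each way of fitting the counts (vertical axis) and filled points have an adjusted P under 0.05. All values lie between 1.84 and 2.60, while the open points mark the settings in which the call was lost.

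Dusp5 and Dusp6 are cytoplasmic or nuclear phosphatases specific for ERK, and both are transcribed in response to ERK itself. Dusp5, the nuclear enzyme, had 10.1, 10.3, 12.9, 23.5 and 24.2 CPM in IAKA mice 67, 98, 8, 97 and 79 against 10.0, 8.87 and 6.50 CPM in PBS mice 71, 73 and 1. The groups did not overlap, though the lowest IAKA library and the highest PBS library nearly touched. Its log2 fold change was 0.95 ± 0.42 (SE, edgeR, adjusted P = 0.662). Dusp6, the cytoplasmic enzyme, had 30.3, 16.9, 36.9, 46.0 and 53.9 CPM in the same IAKA mice and 21.0, 15.7 and 18.0 CPM in the PBS mice. Here IAKA mouse 98, the library with the fewest counts, lay within the PBS range and the other 4 IAKA libraries lay above it. The log2 fold change was 1.03 ± 0.35 (SE, edgeR, adjusted P = 0.399), the largest after Trib1. Complete separation with IAKA higher was seen for Dusp5 and Trib1 alone among the 10, and for 2.53% of all genes, and none of the 10 separated with IAKA lower, as 1.07% of all genes did.

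The other phosphatases act on more MAPKs. Dusp4, a nuclear phosphatase of ERK and JNK, reached 22.0 and 30.9 CPM in IAKA mice 97 and 79 but 12.1, 6.66 and 7.86 CPM in mice 67, 98 and 8, against 8.75, 12.5 and 6.86 CPM in the PBS mice. Only the set 4 libraries of IAKA mice therefore stood above the PBS range, and the log2 fold change was 0.74 ± 0.39 (SE, edgeR, adjusted P = 0.749). It was 0.34 without IAKA mouse 79, and the lowest library held 11 counts. Dusp1, an immediate early phosphatase that acts on p38 and JNK as well as ERK, ranged from 5.56 to 13.0 CPM in IAKA and from 4.50 to 7.58 CPM in PBS mice. Its log2 fold change of 0.59 ± 0.36 (SE) did not pass (edgeR, adjusted P = 0.811) and was 0.36 without IAKA mouse 8, and its lowest library also held 11 counts. Dusp14, a small atypical phosphatase, ranged from 12.3 to 23.4 CPM in IAKA and from 6.79 to 13.2 CPM in PBS mice. All but 1 of the IAKA libraries exceeded the highest PBS library, with a log2 fold change of 0.77 ± 0.31 (SE, edgeR, adjusted P = 0.584), which was 1.16 without PBS mouse 73.

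Spry2, an inhibitor of receptor tyrosine kinase signalling upstream of ERK, again had its highest values in set 4. It had 85.3 and 104 CPM in IAKA mice 97 and 79 and 42.9, 26.6 and 41.5 CPM in mice 67, 98 and 8, against 32.5, 37.5 and 28.4 CPM in PBS mice. The log2 fold change was 0.84 ± 0.46 (SE, edgeR, adjusted P = 0.767), and 0.54 without IAKA mouse 79. Spry4 had 20.3 and 25.0 CPM in IAKA mice 97 and 79, and its other 3 IAKA libraries, at 8.59 to 11.8 CPM, overlapped the PBS range of 5.98 to 11.4 CPM. Its log2 fold change was 0.80 ± 0.33 (SE, edgeR, adjusted P = 0.607). Spred1, which brings neurofibromin to the membrane to switch off Ras, ranged from 137 to 241 CPM in IAKA and from 109 to 151 CPM in PBS mice. The overlap came from 1 library on each side, and the log2 fold change was 0.61 ± 0.27 (SE, edgeR, adjusted P = 0.662). Spred2, its close relative, had the lowest value of the 10, 0.23 ± 0.28 (SE, edgeR, adjusted P = 0.907), with 31.7 to 94.8 CPM in IAKA and 45.3 to 71.3 CPM in PBS mice, and between 0.076 and 0.45 with 1 library left out.

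IAKA mice 97 and 79, the set 4 libraries, gave the highest 2 values of the IAKA group for 8 of the 10 genes. The exceptions were Dusp1 and Dusp14, in which another library took the second place. The share of all genes with this pattern was not counted, so it cannot be read as particular to these 10. Set 4 is also the only set with both groups at 24 h, and it was fitted alone only after the data were seen, with these 2 high libraries as the IAKA arm, so its count is no independent support. Within it, 6 of the 10 genes passed the edgeR test (Trib1, Dusp5, Dusp6, Spry2, Spry4 and Spred1), at log2 fold changes of 0.94 to 2.60, with 356 genes called in all. With voom and sample quality weights 8 of the 10 passed, all but Dusp1 and Spred2, and 1360 genes were called in all. With DESeq2 1 passed, Trib1, of 202 called. Library set and mouse cannot be told apart within the IAKA mice of 24 h.

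**Figure D2:**
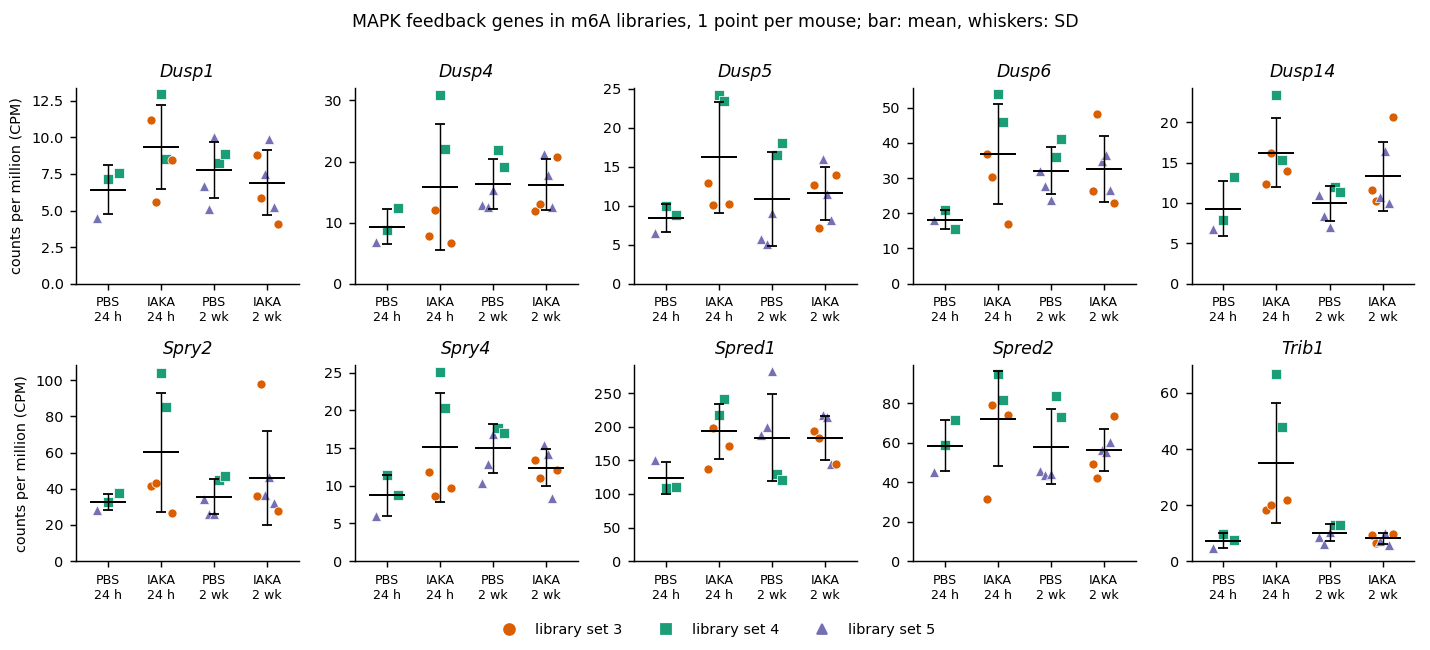
CPM (vertical axes, linear from 0) of each of the 10 genes in the 19 m6A libraries by group (horizontal axes), 1 point per mouse with the colour and shape giving the library set, bars the mean and whiskers the SD. Trib1 at 24 h is the clearest separation, with 18.3 to 66.8 CPM in IAKA and 4.65 to 9.68 CPM in PBS mice.

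At 2 weeks, in mice with spontaneous seizures, none of the 10 genes passed the test in m6A libraries, and none had an unadjusted P under 0.05 by edgeR, against 4.07% of all genes. DESeq2 and voom also called none of the 10. Over all 17440 genes 1 was called (0.00573%). The log2 fold changes ran from -0.26 to 0.51 with a median of 0.06, and 7 of 10 were above 0, against 50.6% of all genes. With library size scaling 4 of 10 were above 0, and with library set as a block 10 of 10, so no direction is given for the group. Under that block the median was 0.31, against -0.018 over all genes. There Dusp4 (0.57), Dusp5 (0.68) and Dusp14 (0.60) had an unadjusted P under 0.05 by edgeR, while their adjusted P values were 0.999, 0.985 and 0.999. With the block, the shares of all genes under 0.05 and above 0 were not counted. Trib1 ranged from 5.71 to 10.2 CPM with a median of 8.29 CPM in the 6 IAKA mice, and had 13.0, 13.1, 8.57, 5.98 and 10.3 CPM in PBS mice 50, 78, 2, 3 and 4. The IAKA range lay largely inside the PBS range, and the log2 fold change was -0.26 ± 0.31 (SE, edgeR, adjusted P = 0.949). The largest value was that of Spry2, 0.51 ± 0.37 (SE, edgeR, adjusted P = 0.949), and it rested on 1 library, IAKA mouse 6, with 97.6 CPM against a group median of 36.4 CPM. Without that mouse it was 0.019. Dusp14 had 0.49 ± 0.25 (SE, edgeR, adjusted P = 0.949), at 9.98 to 20.6 CPM in IAKA and 6.99 to 12.02 CPM in PBS mice. No gene of the 10 separated the groups in either direction, as 0.315% of all genes did with IAKA higher and 0.321% with IAKA lower.

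The difference between the acute and the chronic effect was tested directly. It was above 0 for all 10 genes, as for 60.7% of all genes, and 0 of the 10 passed edgeR's test, with 2 at an unadjusted P under 0.05 (Trib1 and Spry4) against 2.45% of all genes. Of 17440 genes 1 was called (0.00573%). For Trib1 the IAKA effect at 24 h exceeded that at 2 weeks by 2.48 ± 0.50 (SE, log2, edgeR, adjusted P = 0.368), the 4th smallest P of all genes, and for Spry4 by 1.00 ± 0.42 (SE, edgeR, adjusted P = 1.00). The Trib1 difference passed with DESeq2 (2.49, adjusted P = 0.00369), with voom (2.18, adjusted P = 0.0200) and with edgeR and library set as a block (2.22, adjusted P = 0.0275).

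Across the 4 m6A groups the mean level of Trib1 was 35.0 ± 21.5 CPM (SD, n = 5) in IAKA mice at 24 h, 10.2 ± 3.03 CPM (n = 5) in PBS mice at 2 weeks, 8.13 ± 1.92 CPM (n = 6) in IAKA mice at 2 weeks and 7.35 ± 2.54 CPM (n = 3) in PBS mice at 24 h. The lower 3 groups overlapped one another. Mean Dusp6 was 18.2 ± 2.68 CPM (SD, n = 3) in PBS mice at 24 h and 32.1 ± 6.76 CPM (SD, n = 5) in PBS mice at 2 weeks. The latter was close to the 36.8 ± 14.3 CPM (SD, n = 5) of IAKA mice at 24 h. For Dusp4 the PBS means were 9.35 CPM at 24 h and 16.4 CPM at 2 weeks, against 15.9 CPM in IAKA mice at 24 h. In the same order they were 8.74, 14.9 and 15.1 CPM for Spry4 and 123, 184 and 193 CPM for Spred1. Other genes differed more, such as Spry2 (32.8, 35.6 and 60.1 CPM). Spred2 alone had a lower PBS mean at 2 weeks (57.9 CPM) than at 24 h (58.4 CPM). These differences between control groups were not tested. The 24 h effect and its difference from 2 weeks rest on 3 PBS mice.

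In the input libraries at 24 h all 10 genes again had a fitted change above 0, as did 65.9% of all genes, and 0 of the 10 passed edgeR's test. None of 17644 genes was called (0%), against 201 by DESeq2 and 1057 by voom, and an unadjusted P under 0.05 was reached by 3 of the 10 (Trib1, Spred1 and Dusp14) against 9.23% of all genes. The comparison rests on 1 PBS mouse, assumed to vary like the other groups. The median log2 fold change was 0.70 for the 10 genes and 0.27 over all genes. Under library size scaling the median over all genes became -0.04, and the 10 genes lay 0.44 above it, against 0.43 with the scaling used here.

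Trib1 input was 20.2, 13.6 and 12.2 CPM in IAKA mice 67, 98 and 8 against 3.47 CPM in PBS mouse 1. All 3 IAKA libraries were above the control and above the 3.99 to 7.85 CPM of all input libraries at 2 weeks. The log2 fold change was 2.43 ± 0.39 (SE, edgeR, adjusted P = 0.172), the 2nd smallest P of 17644 genes, or 2.16 relative to the median of all genes. It passed with DESeq2 (2.42, adjusted P = 1.2e-05), with voom (2.46, adjusted P = 0.00533) and with edgeR when the PBS libraries of both times served as controls (1.79, adjusted P = 0.00621). Dusp14 had 9.64, 7.42 and 10.5 CPM in the IAKA mice and 5.20 CPM in the control, and its log2 fold change was 1.15 ± 0.54 (SE, edgeR, adjusted P = 0.539). Spred1, at 198, 208 and 137 CPM against 141 CPM, had 0.65 ± 0.25 (SE, edgeR, adjusted P = 0.462). Dusp4, at 7.46, 4.61 and 7.77 CPM, straddled its control of 6.62 CPM. All IAKA libraries exceeded the control for Dusp6, Dusp14, Spry4 and Trib1, as for 10.9% of all genes, and none of the 10 had all IAKA libraries below it, as 33.1% of all genes did. Leaving out IAKA mouse 8 lowered Dusp1 to 0.49, Dusp4 to 0.11, Dusp6 to 0.42 and Spry2 to 0.016 (log2).

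**Figure D3:**
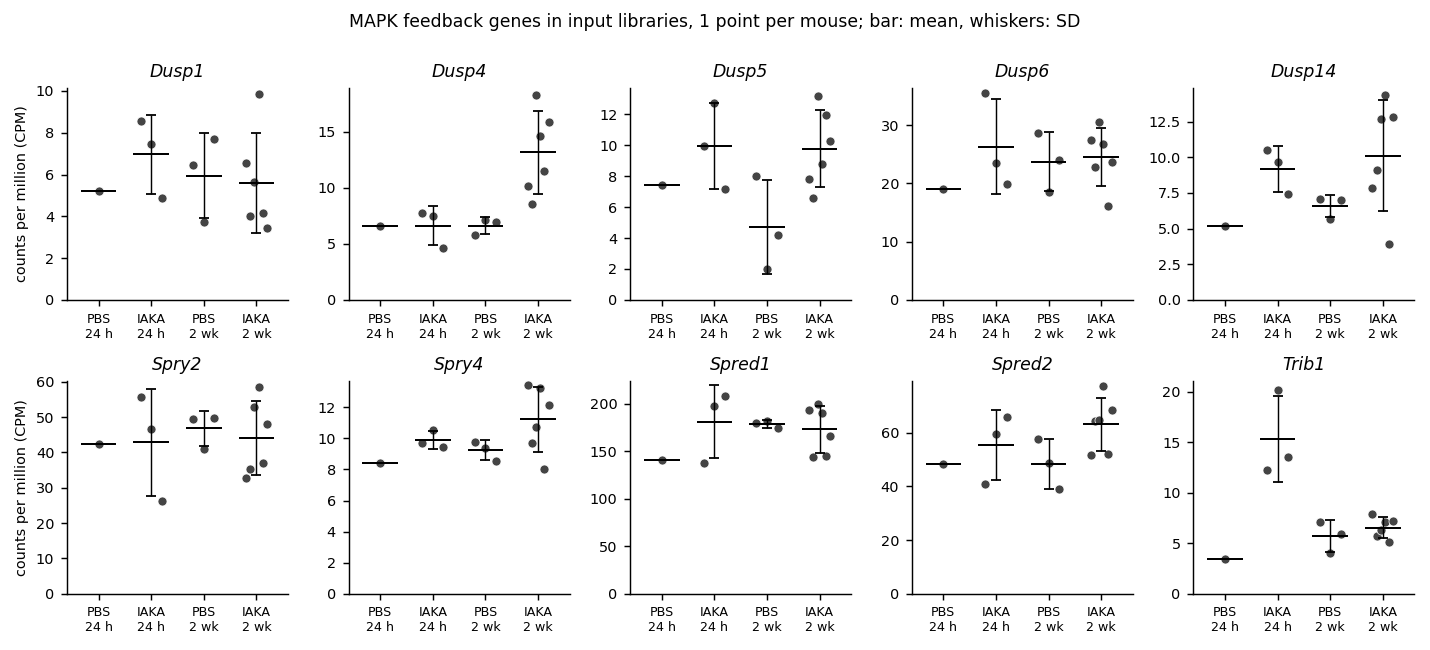
CPM (vertical axes, linear from 0) of each of the 10 genes in the 13 input libraries kept, by group (horizontal axes), 1 point per mouse with bars for the mean and whiskers for the SD, where the PBS group at 24 h is 1 mouse and has no whisker. Trib1 is highest in IAKA mice at 24 h, at 12.2 to 20.2 CPM, and Dusp4 in IAKA mice at 2 weeks, at 8.61 to 18.3 CPM.

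In the input libraries at 2 weeks, with 6 IAKA and 3 PBS mice, the leading genes were others. None of the 10 passed edgeR's test and none of 17644 genes was called (0%), while 3 of the 10 had an unadjusted P under 0.05 against 8.16% of all genes. DESeq2 called 30 genes and voom 94, none of the 10 among them. Dusp4 ranged from 8.61 to 18.3 CPM with a median of 13.1 CPM in IAKA mice, against 5.78, 7.13 and 6.99 CPM in PBS mice 2, 3 and 4. The groups did not overlap, which was so with IAKA higher for 2.36% of all genes and with IAKA lower for 3.26%, and the log2 fold change was 1.00 ± 0.27 (SE, edgeR, adjusted P = 0.544). Dusp5 ranged from 6.61 to 13.2 CPM with a median of 9.56 CPM in IAKA mice against 8.00, 2.00 and 4.20 CPM in PBS mice. The highest PBS library lay inside the IAKA range, the lowest rested on 7 counts, and the log2 fold change was 1.06 ± 0.33 (SE, edgeR, adjusted P = 0.555). Spred2 had 0.41 ± 0.18 (SE, edgeR, adjusted P = 0.593), at 51.7 to 77.3 CPM in IAKA and 39.0 to 57.5 CPM in PBS mice. Trib1, at 5.13 to 7.85 CPM in IAKA and 3.99 to 7.11 CPM in PBS mice, had 0.21 ± 0.23 (SE, edgeR, adjusted P = 0.872).

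**Figure D4:**
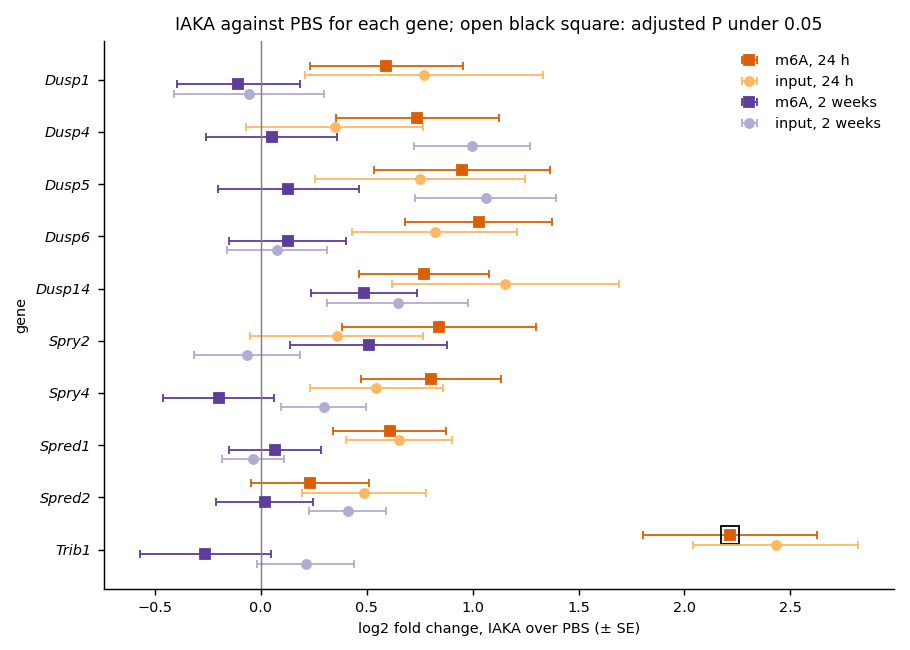
Log2 fold change of IAKA over PBS (horizontal axis, bars ± SE) for each of the 10 genes (vertical axis) in m6A libraries (squares) and input libraries (circles) at 24 h and at 2 weeks. Trib1 at 24 h lies apart in both kinds of library, at 2.22 and 2.43, and only its m6A value passed the adjusted threshold.

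Whether the m6A libraries changed beyond the input was tested with both kinds of library in the same fit. For the change at 24 h and for the change at 2 weeks, 0 of the 10 genes and 0 of 22654 genes passed edgeR's test (0% at each time), and 0 of the 10 reached an unadjusted P under 0.05, against 0.658% and 2.33% of all genes. The change was above 0 for 5 of the 10 at 24 h and for 3 at 2 weeks, as for 50.2% and 51% of all genes, and the 24 h count became 9 with library size scaling. DESeq2 called 1 gene at 24 h and 8 at 2 weeks, voom called 0 and 1, and none was among the 10. For Trib1 at 24 h the change in m6A over input was -0.14 ± 0.70 (SE, log2, edgeR, adjusted P = 1.00), with an SE larger than the value itself. At 2 weeks the lowest values were those of Dusp4 and Dusp5, each -0.96 on the log2 scale, with SE of 0.49 and 0.54 (edgeR, adjusted P = 1.00 for both). With mouse as a block, over mice that had both libraries, Dusp4 was at -0.67 and Dusp5 at -0.28 (edgeR, adjusted P = 0.952 and 0.979, unadjusted P = 0.020 and 0.487), and voom without the block gave Dusp5 -0.16.

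In PBS mice the ratio of m6A to input compares the recovery of a transcript by the antibody with that of other genes. Both times weigh equally in it, and the PBS input at 24 h is 1 library. Only some PBS mice had both libraries, so differences between mice enter the ratio too. Here 127 of 22654 genes were called (0.561%), 8 higher (0.0353%) and 119 lower (0.525%) in m6A libraries, and 0 of the 10 were among them by edgeR, DESeq2 or voom. The ratio was above 0 for 8 of the 10, as for 54.2% of all genes, and an unadjusted P under 0.05 was reached by 2 of the 10, against 12.6% of all genes. These were Trib1, at 0.89 ± 0.38 (SE, log2, edgeR, adjusted P = 0.329), and Dusp4, at 0.82 ± 0.37 (SE, edgeR, adjusted P = 0.356). With mouse as a block both values were smaller and neither had an unadjusted P under 0.05, at 0.35 for Trib1 and 0.41 for Dusp4 (edgeR, adjusted P = 0.674 and 0.537). Spry2 had the lowest ratio, -0.46 ± 0.37 (SE, edgeR, adjusted P = 0.652), or -0.77 with the block (adjusted P = 0.401, unadjusted P = 0.0252), and Dusp6, with the most GGACT per kb, had 0.11 ± 0.29 (SE, edgeR, adjusted P = 0.969).

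The rest of the pathway was read from lists of named genes. These lists were chosen with earlier results of these data known, so their calls are no independent support. Among transcription targets and effectors of ERK signalling, no gene passed the test as lower in m6A libraries at 24 h, as 0.00573% of all genes did. The median log2 fold change was 0.85, against 0.09 over all genes. In this list 3 of 26 genes passed as higher, against 0.172% of all genes, and 23 were not called. They were Fos, an immediate early transcription factor (3.19 ± 0.56, SE, edgeR, adjusted P = 0.0286), Emp1, an epithelial membrane protein (2.67 ± 0.42, SE, adjusted P = 0.0145), and Plaur, the urokinase receptor (3.70 ± 0.71, SE, adjusted P = 0.0335). Fos had 10.3 to 41.1 CPM in IAKA and 1.03 to 4.16 CPM in PBS mice, and Emp1 had 7.26 to 16.2 CPM and 1.22 to 2.07 CPM. Plaur had 2.08 to 4.04 CPM in IAKA mice and 0.0715, 0.221 and 0.323 CPM in PBS mice, of which the lower 2 are 3 counts or fewer, so the size of its fold change is poorly fixed. In the remaining lists no gene passed in m6A libraries at 24 h. These were 14 other DUSP genes (median 0.11), 19 other feedback inhibitors (0.44), 26 genes of the ERK cascade core (-0.05), 23 genes of the p38, JNK and ERK5 cascades (-0.01) and 33 ligands and receptor tyrosine kinases (0.35). At 2 weeks, and in input libraries at both times, no gene of any of these lists passed. The medians of the ERK cascade core stayed between -0.05 and 0.04 in the 4 comparisons of IAKA with PBS.

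Over the 19 m6A libraries, the genes whose level ran most closely with the mean of the 10 were Nfil3 (Pearson r = 0.864), Hspa5 (0.836), Gbp7 (0.830), Trib2 (0.825) and Adpgk (0.823). The libraries share groups, sets and depth, so these values are descriptions. Trib2, the relative of Trib1, had 43.0 to 154 CPM in IAKA and 18.9 to 35.6 CPM in PBS mice at 24 h. The groups did not overlap, as with IAKA higher for 2.53% of all genes. Its log2 fold change was 1.46 (edgeR, adjusted P = 0.259). Because Trib2 was picked for its likeness to the 10 over these same libraries, it gives no separate support. Among the 10 themselves, Spry4 (r = 0.80) and Dusp5 (0.79) ran most closely with the mean of the other 9, and Spred1 least (0.26).

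Markers of other cell types were read beside these results. None of the lists held a gene that passed in any IAKA against PBS comparison. At 24 h the summed level of 5 endothelial markers was 294 to 469 CPM in m6A libraries of IAKA mice and 200.4 to 280 CPM in those of PBS mice, with no overlap. Of all genes taken singly, 2.53% separated with IAKA higher, and no such share was counted for sums. The median log2 fold change of these markers was 0.45. The sum of 6 leukocyte markers was 19.96 to 90.2 CPM against 13.4 to 32.8 CPM, and that of 6 excitatory neuron markers was 827 to 3558 CPM against 2275 to 5150 CPM. In input at 24 h, against the 1 PBS library, leukocyte markers (23.6 to 68.2 CPM against 18.8 CPM) and 4 blood markers (10.2 to 31.4 against 6.30 CPM) were higher in all 3 IAKA libraries. There 6 oligodendrocyte markers (717 to 1830 against 2346 CPM) and 6 inhibitory neuron markers (324 to 361 against 570 CPM) were lower in all 3. Among single genes, 10.9% of all had all 3 IAKA libraries above the control and 33.1% had all 3 below it. The summed endothelial markers (427 to 1205 against 883 CPM) were not separated. The median log2 fold change of these endothelial markers was nevertheless 1.79, against 0.27 over all genes. No marker of these lists was at 0 throughout a group. Their part in the change of Trib1 was not tested.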

How the data were processed

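Hippocampal RNA was extracted with TRIzol, 5 µg of total RNA was immunoprecipitated for m6A, and libraries were made with a stranded total RNA kit. The authors deposited raw counts per gene and sequencing lane, aligned to mm10 per the labels. No aligner or counter is named in the sources used here. The 4 lanes of each library were summed (35 libraries). For 8 libraries the column name states the assay, and for 27 it was read from the prefix. In all, 8 columns matching no label were not used. Input libraries under 100000 counts were left out.

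Counts were tested with edgeR 4.0.16 (TMM, filterByExpr, robust quasi-likelihood, Benjamini-Hochberg at 0.05). All 19 m6A libraries entered 1 fit with 4 groups, the 13 input libraries another, and all 32 entered a fit with 8 groups. SE is the log2 fold change divided by the root of F. CPM in the text uses library size. Alternatives were DESeq2 1.42.0, voom (limma 3.58.1), other scaling and filters, the compared groups alone, library set or mouse as a block, other controls, and leaving out each library. Scripts were tested on data simulated 2 times for each 24 h comparison. In m6A libraries 6 and 4 of 100 2-fold changes were called, and 58 and 72 of 100 4-fold changes. In input libraries these were 2 and 1 of 100, and 42 and 29 of 100. A gene not called at 24 h can therefore still have changed 2-fold. Unchanged genes called in these simulations numbered 3 and 3 in m6A libraries and 7 and 4 in input libraries. They numbered 0 in data simulated without any change. Genes named were the 10 members, up to 3 called genes per pathway list and the 5 nearest by correlation. Members and lists were chosen with earlier results of these data known. Within each assay the labels give each library its own mouse. Input and m6A libraries of a number share a mouse, which the fit with 8 groups left unpaired. For 12 mice the deviations of both libraries from the group means correlated at -0.04 to 0.88. A count of 1 equalled 0.0289 to 0.605 CPM in m6A libraries, and precision is set by the number of mice and by depth.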

Additional observations from a re-analysis of the deposited data

Results flagged for a closer look

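Spry2 in the m6A libraries of IAKA mice at 2 weeks had its highest value, 97.6 CPM, in mouse 6. The gap to the next library was 0.731 of the range of the 6 libraries, above the critical value of 0.625. It was 1 of 40 groups examined, and chance marks about 1 in 20.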

How the results depend on the processing

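Across alternatives, 130 of 146 counts of genes called among the 10 kept within 1.5 times their value. Most of these were 0 in both fits, which says little where few changes can be called. Of 1210 values of single genes, 1128 kept their direction and side of the threshold. A further 6 lost the threshold and 21 gained it, and 55 changed sign, none of them past the threshold. The cause was not tested except where named. The m6A count at 24 h, 1 of 10, became 8 with voom, 6 with only library set 4 and 0 with only the 2 groups compared, which leaves fewer libraries to estimate the spread, and was 0 to 1 with each library left out. All genes called there numbered 31, against 202 with DESeq2, 1360 with voom, 65 with library set as a block, 356 in set 4 alone, 66 without the 2 libraries of fewest counts, 1 with the 2 groups only, 1 without any of the 3 PBS mice in turn, 4 without IAKA mouse 97 or 79 and 16 without IAKA mouse 67. The difference between times, 0 of 10, became 1 with DESeq2, voom and the library set block. The input count at 24 h, 0 of 10, became 1 with DESeq2 (201 genes in all), 2 with voom (1057), 1 with all labelled input libraries (8) and 1 against PBS libraries of both times (416), and was 0 to 1 with each library left out, the 1 being without IAKA mouse 8 (180 genes in all).

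With the replicate block, the mouse, over the 13 mice that had both libraries, the count stayed at 0 of 10 in each comparison of m6A over input, while all genes called in PBS mice fell from 127 to 41, against 600 with DESeq2 and 4128 with voom. The block turned the sign of Dusp6 at 24 h (-0.10) and, in PBS mice, of Dusp1 (-0.088), Dusp6 (-0.050), Spry4 (-0.13), Spred1 (0.061) and Spred2 (-0.23).

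Signs of small values also turned, given as log2. In m6A libraries at 2 weeks these were, with voom, Dusp1 (0.28), Spry4 (0.11) and Trib1 (0.034). With library size scaling they were Dusp4 (-0.016), Spred1 (-0.0071) and Spred2 (-0.046). With library set as a block they were Dusp1 (0.029), Spry4 (0.13) and Trib1 (0.20), and in set 5 alone, added after the data were seen, Dusp1 (0.14) and Spred1 (-0.15). In input at 24 h voom turned Spry2 (-0.041). For m6A over input at 24 h, Spred1 turned with DESeq2 (0.019), library size scaling (0.28), no filter (0.0042) and a mean count of at least 10 (0.0067), Trib1 with library size scaling (0.13) and Dusp14 with voom (0.035). Library size scaling raised the all-gene median of that comparison from 0.0022 to 0.26.

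With each library left out in turn, m6A values at 24 h spanned 0.36 to 0.76 for Dusp1, 0.34 to 1.04 for Dusp4, 0.54 to 0.98 for Spry2 and 0.076 to 0.45 for Spred2, and those at 2 weeks spanned 0.019 to 0.64 for Spry2, -0.044 to 0.27 for Spred1, -0.049 to 0.16 for Dusp4, -0.074 to 0.40 for Dusp5, -0.088 to 0.17 for Spred2 and -0.11 to 0.25 for Dusp6. Input values at 2 weeks spanned -0.020 to 0.19 for Dusp6, -0.073 to 0.037 for Spred1, -0.32 to 0.19 for Dusp1 and -0.17 to 0.012 for Spry2. For m6A over input at 24 h they spanned -0.21 to 0.13 for Spred1, -0.52 to 0.10 for Trib1 and -0.53 to 0.11 for Dusp14. Depth limits Dusp5, Dusp1 and Dusp4 most, with 7, 11 and 11 counts in their lowest libraries, and the PBS mice set the precision at 24 h.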
